A study of Mus musculus with 10 samples.

Results

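The genes described are those for the proteins of the cytosolic ribosome, with the paralogues and named pseudogenes that resemble them. They were chosen by name: symbols that begin with Rpl or Rps followed by a number, the 3 stalk genes, and rows with a -ps suffix that held at least 50 estimated reads over all libraries. This gave 109 of the 35087 gene symbols: 46 large subunit genes, 30 small subunit genes, 15 paralogues, 17 pseudogenes and Rps19bp1, which fits the name pattern but encodes a binding protein. The tables list 291 pseudogene rows of this kind, of which 149 had no read in any library. Just inside the read minimum were Rps15a-ps6 (59.7 reads) and Rps13-ps4 (56.5), and just outside it were Rpl10-ps5 (48.2) and Rps19-ps3 (46.8).

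Transcripts were measured in granulosa cells, the somatic cells that surround the oocyte, cut by laser microdissection from the ovaries of wild-type female C57B6/J mice aged 3 weeks. The NAC group (4 libraries) received N-acetyl-L-cysteine, an antioxidant and source of cysteine, into the peritoneal cavity at 150 mg/kg on each of 3 days running. The saline group (6 libraries) received normal saline in the same way, and ovaries of both groups were taken on day 4. Polyadenylated RNA was amplified by GEO-seq, a protocol for small captured samples, and the labels give 1 batch. They do not tie libraries to animals. The p-values therefore describe how captured samples vary, and they are too small if some libraries came from the same animal.

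A ribosome has a large subunit, which forms peptide bonds, and a small subunit, which reads the mRNA, and most of its proteins are present in a single copy. The mRNAs of these proteins are short and abundant, and many begin with a run of pyrimidines through which mTOR signalling controls their translation. Because the mRNAs are so abundant they were often copied back into the genome, which left many processed pseudogenes whose sequence can match the parent over its whole coding region. Growing follicles contain dividing granulosa cells, which make ribosomes throughout.

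Depth was 1295412, 509945, 116461 and 1667181 estimated reads in NAC 1 to NAC 4, and 1340324 to 2488408 in the saline libraries. NAC 2 and NAC 3, the shallowest libraries, had reads for 84.9% and 85.2% of the 10945 genes tested, compared with 97.7% to 99.5% elsewhere. Although deeper than NAC 3, NAC 2 had reads for about as few symbols (10434, against 10266 in NAC 3 and 14022 to 16165 elsewhere). The summed level of 14 granulosa markers was 8926 to 23813 CPM (reads scaled to a common library total) in NAC and 15627 to 44000 CPM in saline, and every one of these markers had reads. The 14 oocyte markers summed to 313 to 1952 CPM in NAC and 2.23 to 2282 CPM in saline, and the 10 theca and stroma markers to 80.6 to 2023 CPM in NAC and 100 to 976 CPM in saline. The 6 endothelial markers summed to 48.3 to 162 CPM in NAC and 8.83 to 38.7 CPM in saline. The 5 smooth muscle markers summed to 8.05 to 573 CPM in NAC and 7.21 to 315 CPM in saline. For the 6 immune markers the sums were 0 to 45.05 CPM in NAC and 0.49 to 16.15 CPM in saline. For the 5 erythrocyte markers they were 0 to 851 CPM in NAC and 2.88 to 85.7 CPM in saline. NAC 2 was the highest library for smooth muscle and immune markers, and NAC 4 for erythrocyte markers. Every gene of these lists had reads too. The endothelial sums did not overlap between groups. An alternative fit took an oocyte score (the mean log2 level of the oocyte markers) as covariate. Beyond that fit, the part of other cells in the results below was not tested.

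Pseudogene rows share sequence with their parents, so the copies come before the values. Of the 17 pseudogenes, 11 matched the coding sequence of the parent without a difference over the aligned bases. A read from such a stretch fits parent and copy equally well, and Salmon, the program that made the deposited counts, divides it by estimation. The first 75 coding bases of Rps6 and of its processed pseudogene Rps6-ps4 are printed in lower case because no base differs. The same held for Rpl5 and for Gm15500, an annotated copy of Rpl5 without a -ps name (GENCODE release M21, GRCm38).
Rps6: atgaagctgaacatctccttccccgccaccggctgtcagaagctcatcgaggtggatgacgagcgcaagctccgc
Rps6-ps4: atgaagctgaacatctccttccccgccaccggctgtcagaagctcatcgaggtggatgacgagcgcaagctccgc
Rpl5: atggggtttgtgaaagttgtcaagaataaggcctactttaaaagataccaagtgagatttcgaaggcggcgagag
Gm15500: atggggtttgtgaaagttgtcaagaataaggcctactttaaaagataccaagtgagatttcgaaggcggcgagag

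Diverged copies and several paralogues carry differences, shown in capitals in the pairs that follow. Rps4l, on chromosome 6, is an intronless relative of Rps4x, which lies on the X chromosome. It matched Rps4x at 80.18% of the aligned coding bases, with 12 differences in the stretch shown. Rpl36al, a paralogue that encodes a protein of the large subunit, matched Rpl36a at 87.74%, with 13 differences in the stretch shown. The longest identical run was 35 bases in the Rps4x pair and 24 bases in the Rpl36a pair.
Rps4x: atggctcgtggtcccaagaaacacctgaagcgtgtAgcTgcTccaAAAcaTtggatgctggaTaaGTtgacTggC
Rps4l: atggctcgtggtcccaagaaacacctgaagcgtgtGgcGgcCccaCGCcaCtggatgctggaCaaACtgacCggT
Rpl36a: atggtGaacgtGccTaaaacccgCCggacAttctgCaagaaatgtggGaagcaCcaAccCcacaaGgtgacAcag
Rpl36al: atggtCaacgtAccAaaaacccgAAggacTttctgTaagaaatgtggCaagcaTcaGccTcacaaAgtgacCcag

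The subunit genes took a smaller mean share of reads in NAC than in saline, but the groups overlapped. The 46 large and 30 small subunit genes together summed to 72812, 92854, 57349 and 67955 CPM in NAC (replicates 1 to 4) and to 69253, 76999, 117502, 133391, 138910 and 111163 CPM in saline (replicates 1 to 6). The mean was 72743 ± 14881 CPM in NAC (SD, n = 4) and 107870 ± 28854 CPM in saline (SD, n = 6). Saline 1 and saline 2 lay among the NAC libraries, and the other 4 saline libraries lay above every NAC library. As a share of estimated reads this was 6.15% to 8.94% in NAC and 7.51% to 12.2% in saline.

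The granulosa marker sum divided the saline libraries in the same way. It was 15627 and 18381 CPM in saline 1 and saline 2, and 40275 to 44000 CPM in saline 3 to saline 6. In NAC it was 13524, 8926, 23813 and 16697 CPM. Whether the ribosomal protein sum follows the makeup of the captures was not tested, and in bulk captures fewer cells of a type and less RNA per cell cannot be told apart.

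The small subunit sum stood at 0.563, 0.784, 0.563 and 0.585 of the large subunit sum in NAC, and at 0.530 to 0.591 in saline. NAC 2 was the only library outside the saline range on the high side, and none was below it. NAC 2 also spread its subunit genes most: the SD over genes of the deviation from the saline mean was 1.25 on the log2 scale, against 0.45, 0.73 and 0.25 in NAC 1, NAC 3 and NAC 4 and 0.17 to 0.30 in the saline libraries.

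**Figure D1:**
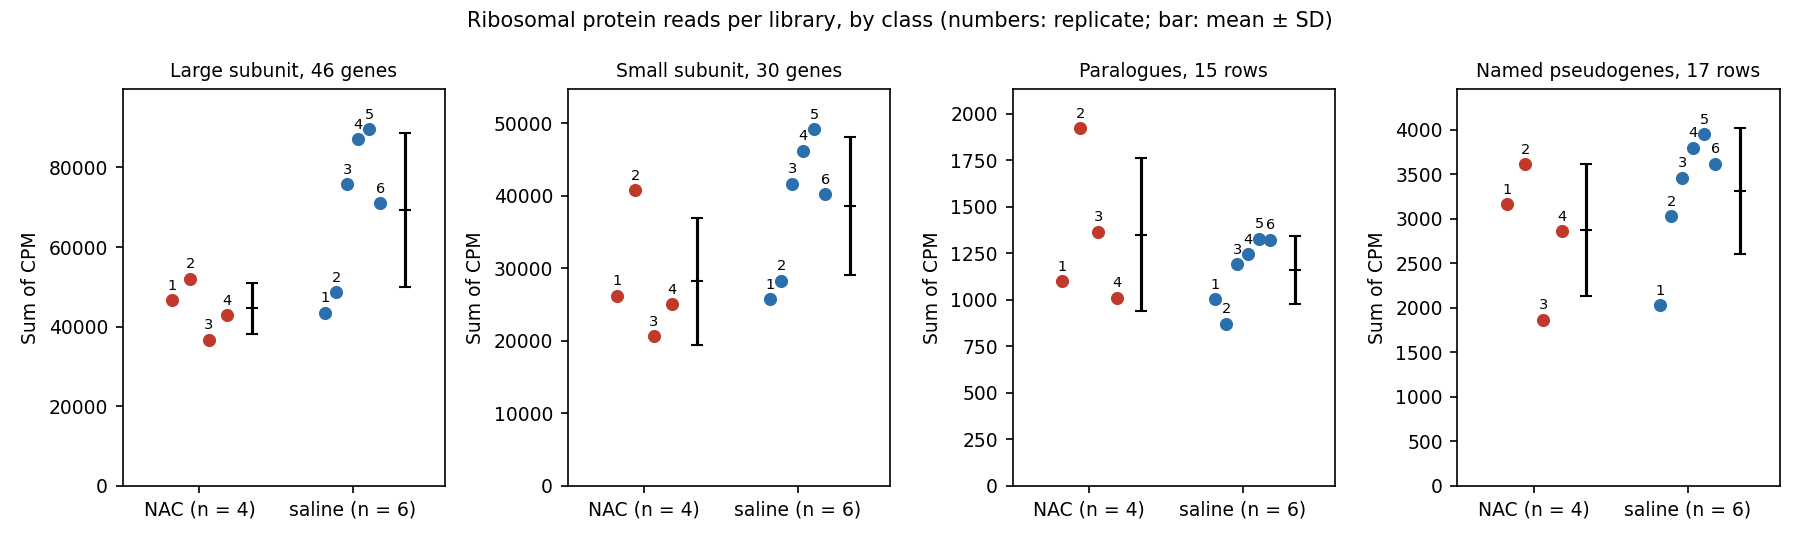
Summed CPM of the large subunit genes, small subunit genes, paralogues and named pseudogenes in each library (points, numbered by replicate), with mean ± SD beside each group (NAC, n = 4; saline, n = 6). In the large subunit panel the NAC libraries lie at 36702 to 52036 CPM, near saline 1 and saline 2 (43521 and 48714) and below saline 3 to saline 6 (70960 to 89697).

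Of the 76 subunit genes, 60 had a negative log2 fold (NAC over saline) and 16 a positive one, with a median of -0.43, against 5360 of 10945 genes (49.0%) and a median of 0.02 over all genes tested. The large subunit had 37 of 46 negative (median -0.37, from -1.68 to 0.61), and the small subunit 23 of 30 (median -0.45, from -1.39 to 0.52). None of the 76 passed edgeR's quasi-likelihood test at an adjusted p under 0.05 (Benjamini-Hochberg over all genes), and over all genes 0.0731% passed, with 0.0183% higher and 0.0548% lower in NAC. At an unadjusted p under 0.05 there were 20 lower and 0 higher, against 8.34% lower and 7.82% higher over all genes. DESeq2 called 6 of the 76, all with lower levels in NAC (Rplp0, Rps2, Rpl41, Rps26, Rpl8 and Rpl10), and it called 3.96% of all genes. Without a filter on low counts edgeR called 4 of these (Rplp0, Rps2, Rpl41 and Rps26) and 1.06% of all genes. In 3 subunit genes every NAC library lay below every saline library, and over all genes 3.43% did so.

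NAC 2 decided the sign of most positive genes. Without it 75 of the 76 subunit genes had a negative log2 fold and the median was -0.61, and without NAC 2 and NAC 3 again 75 did, with a median of -0.45. Leaving out any 1 of the saline libraries left 59 to 64 negative. Scaled by library size alone, 53 were negative with a median of -0.26, while the median of all genes moved to 0.19. With the oocyte score as covariate, 56 were negative with a median of -0.37. NAC 2 also had the lowest granulosa marker sum (8926 CPM) and the highest theca and stroma sum (2023 CPM) of the 10 libraries, whose part in these values was not tested.

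**Figure D2:**
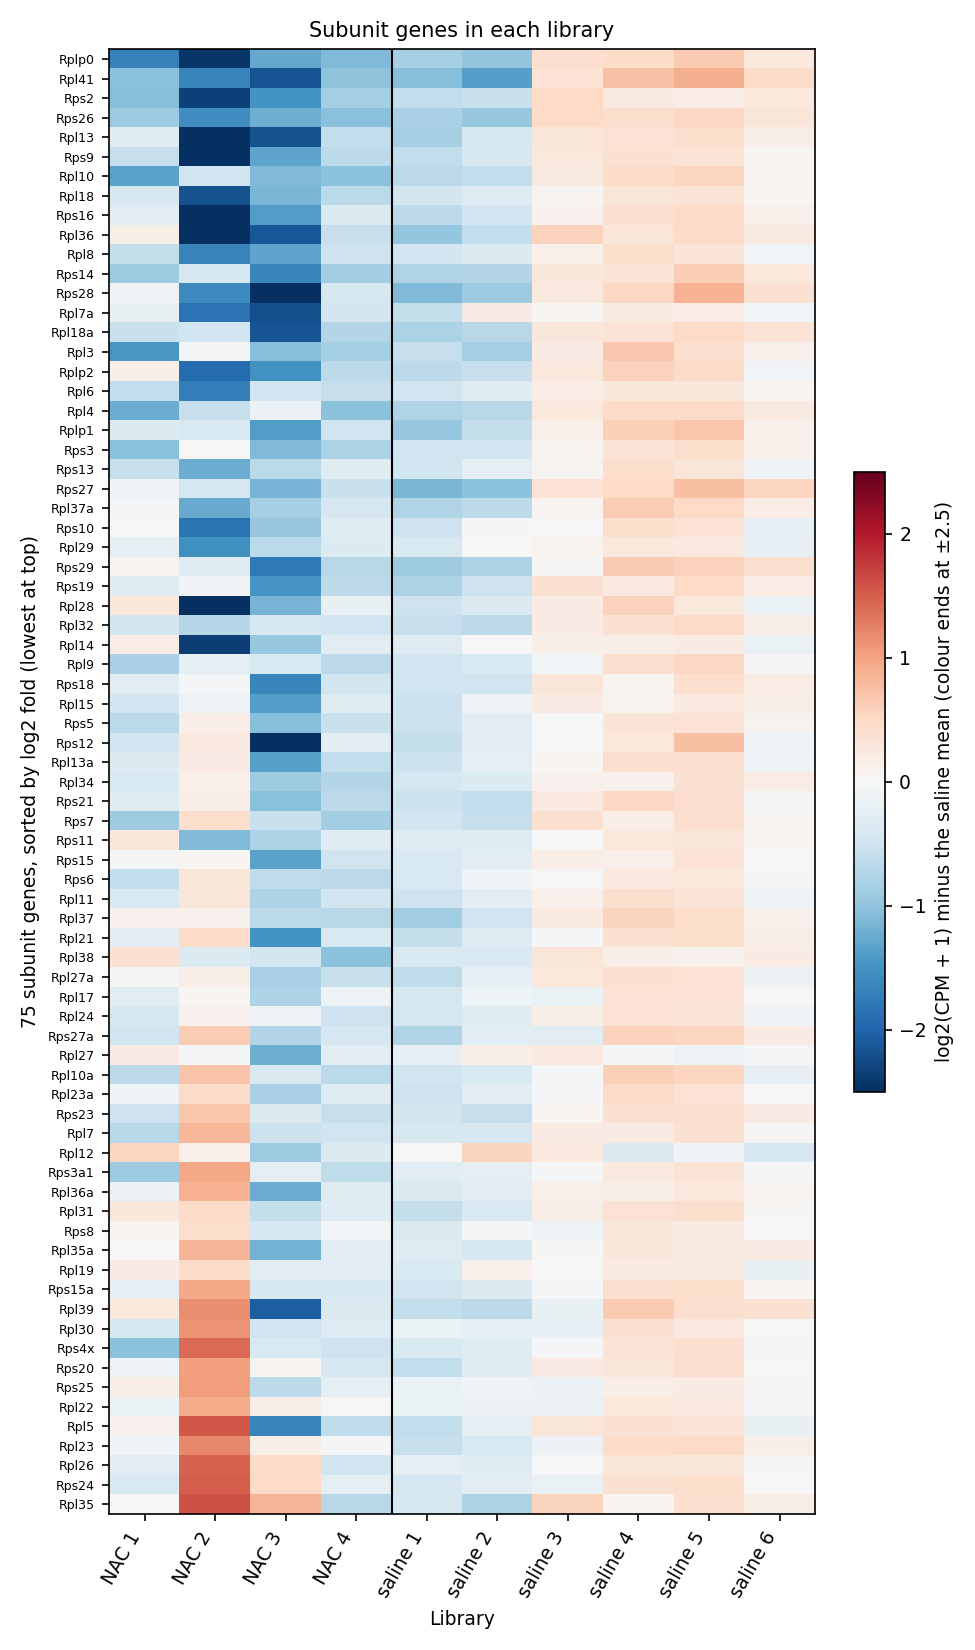
Level of 75 of the 76 subunit genes in each library, as log2(CPM + 1) minus the mean of the 6 saline libraries (colour; blue is below and red above that mean), with NAC libraries on the left and genes sorted by log2 fold. Of all 76, NAC 4 was below the saline mean in 76 genes and NAC 3 in 70, while NAC 2 was below it in 36; the lowest value is that of Rps12 in NAC 3 and the highest that of Rpl35 in NAC 2, and saline 1 and saline 2 were below the mean in 75 and 71 genes.

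The stalk of the large subunit recruits the translation factors, and all 3 of its genes had a negative log2 fold. Rplp0 encodes the scaffold protein of the stalk (chromosome 5, 115559467 to 115563727, plus strand). It had 1698, 1016, 2255 and 2563 CPM in NAC, against a lowest value of 2795, a median of 6990 and a highest of 8706 CPM in saline. Every NAC library lay below every saline library, with saline 1 (3075) and saline 2 (2795) nearest to them. The log2 fold was -1.68 (SE 0.39), and it did not pass (edgeR adjusted p = 0.0765).

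The acidic proteins that bind Rplp0 as dimers are encoded by Rplp1 and Rplp2. Rplp1 had 1053, 1024, 508 and 940 CPM in NAC and 692 to 2142 CPM in saline (median 1457), a log2 fold of -0.70 (SE 0.34; adjusted p = 0.324 in edgeR). Rplp2 had 590, 139, 185 and 338 CPM in NAC and 335 to 793 CPM in saline (median 568), a log2 fold of -0.81 (SE 0.39; adjusted p = 0.314 in edgeR), which was -1.37 without NAC 1. Both overlapped between groups, and NAC 1 was the highest NAC library for each of them.

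Among the other large subunit genes the smallest p-values belonged to Rpl41, Rpl10 and Rpl8. Rpl41 encodes the shortest protein of the ribosome, which lies at the interface of the subunits (chromosome 10, 128548114 to 128549305, minus strand). It had 826, 543, 379 and 842 CPM in NAC and a lowest of 656, a median of 2247 and a highest of 3128 CPM in saline. Saline 1 (814) and saline 2 (656) lay within the NAC range and the other saline libraries at 2167 CPM or more, and the log2 fold was -1.61 (SE 0.44; adjusted p = 0.107 in edgeR).

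Rpl10 encodes a protein that joins late in assembly and lies near the peptidyl transferase centre (chromosome X, 74270812 to 74273135, plus strand). It had 1064, 1894, 1240 and 1313 CPM in NAC and 1694 to 3896 CPM in saline (median 2962), a log2 fold of -1.04 (SE 0.32; adjusted p = 0.139 in edgeR). NAC 2 alone reached into the saline range. Annotated copies held 21.7% of the summed reads of Rpl10 and its copies in NAC, and 8.38% in saline. With these copies added the log2 fold of Rpl10 was -0.94 (SE 0.30; adjusted p = 0.152 in edgeR). Rpl8, whose protein sits at the same centre, had 1006, 475, 604 and 1062 CPM in NAC and 1088 to 2049 CPM in saline (median 1553), a log2 fold of -0.97 (SE 0.30; adjusted p = 0.146 in edgeR). Here no NAC library reached the lowest saline library, though NAC 4 came close to it.

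Rpl13 and Rpl4 were among the 3 large subunit genes with the highest mean CPM, with Rplp0. Rpl13 had 4787, 866, 1306 and 3858 CPM in NAC and 3341 to 7987 CPM in saline (median 6937), a log2 fold of -1.19 (SE 0.45; adjusted p = 0.216 in edgeR). NAC 1 and NAC 4 were the high libraries of the group for this gene, and NAC 2 and NAC 3 the low ones. Rpl4, whose protein reaches into the peptide exit tunnel, had 2342, 3702, 5034 and 2709 CPM in NAC and 3288 to 7764 CPM in saline (median 6550), a log2 fold of -0.77 (SE 0.34; adjusted p = 0.271 in edgeR). For Rpl4, NAC 2 and NAC 3 were the high ones.

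The large subunit genes with the smallest p among positive folds were Rpl35, Rpl26, Rpl22 and Rpl23. Rpl35, whose protein lies near the mouth of the exit tunnel, had 1166, 3519, 2110 and 722 CPM in NAC and 674 to 1722 CPM in saline (median 1261), a log2 fold of 0.61 (SE 0.39; adjusted p = 0.448 in edgeR), which was 0.08 without NAC 2. NAC 2 and NAC 3 stood above every saline library and NAC 1 and NAC 4 within their range. Rpl26, a neighbour of Rpl35 at the tunnel mouth, had 770, 2560, 1265 and 653 CPM in NAC and 744 to 1138 CPM in saline, a log2 fold of 0.49 (SE 0.34), which was -0.10 without NAC 2.

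Rpl23, whose human protein also binds the p53 regulator MDM2, had 586, 1437, 693 and 603 CPM in NAC and 419 to 874 CPM in saline (log2 fold 0.35, SE 0.32). Rpl22, which encodes an RNA-binding protein on the surface of the subunit, had 212, 455, 266 and 237 CPM in NAC and 212 to 284 CPM in saline (log2 fold 0.29, SE 0.26). Without NAC 2 these folds were -0.07 and -0.04, and in both genes NAC 2 was the only library above the saline range.

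In the small subunit the smallest p belonged to Rps2, whose protein lines the channel where mRNA enters (chromosome 17, 24718116 to 24721929, plus strand). It had 1481, 614, 1087 and 1715 CPM in NAC, against a lowest of 2014, a median of 3549 and a highest of 4370 CPM in saline. The groups did not overlap, and the log2 fold was -1.39 (SE 0.34; adjusted p = 0.0891 in edgeR).

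Rps26 encodes a protein at the site where mRNA leaves (chromosome 10, 128624534 to 128626747, minus strand). It had 511, 328, 411 and 465 CPM in NAC and a lowest of 497, a median of 1245 and a highest of 1372 CPM in saline. The NAC values lay close together, saline 1 (545) and saline 2 (497) were next to them, and the other saline libraries were at 1188 CPM or more. The log2 fold was -1.28 (SE 0.34; adjusted p = 0.0996 in edgeR).

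Rps9, another protein of the entry channel, had 1573, 358, 942 and 1495 CPM in NAC and 1526 to 3031 CPM in saline (log2 fold -1.14 with an SE of 0.38; adjusted p = 0.168 in edgeR). Rps14, a protein of the platform near the exit site, had 1003, 1409, 604 and 1016 CPM in NAC and 1108 to 2862 CPM in saline (log2 fold -0.97 with an SE of 0.34; adjusted p = 0.185 in edgeR). A single NAC library entered the saline range in each, NAC 1 for Rps9 and NAC 2 for Rps14.

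**Figure D3:**
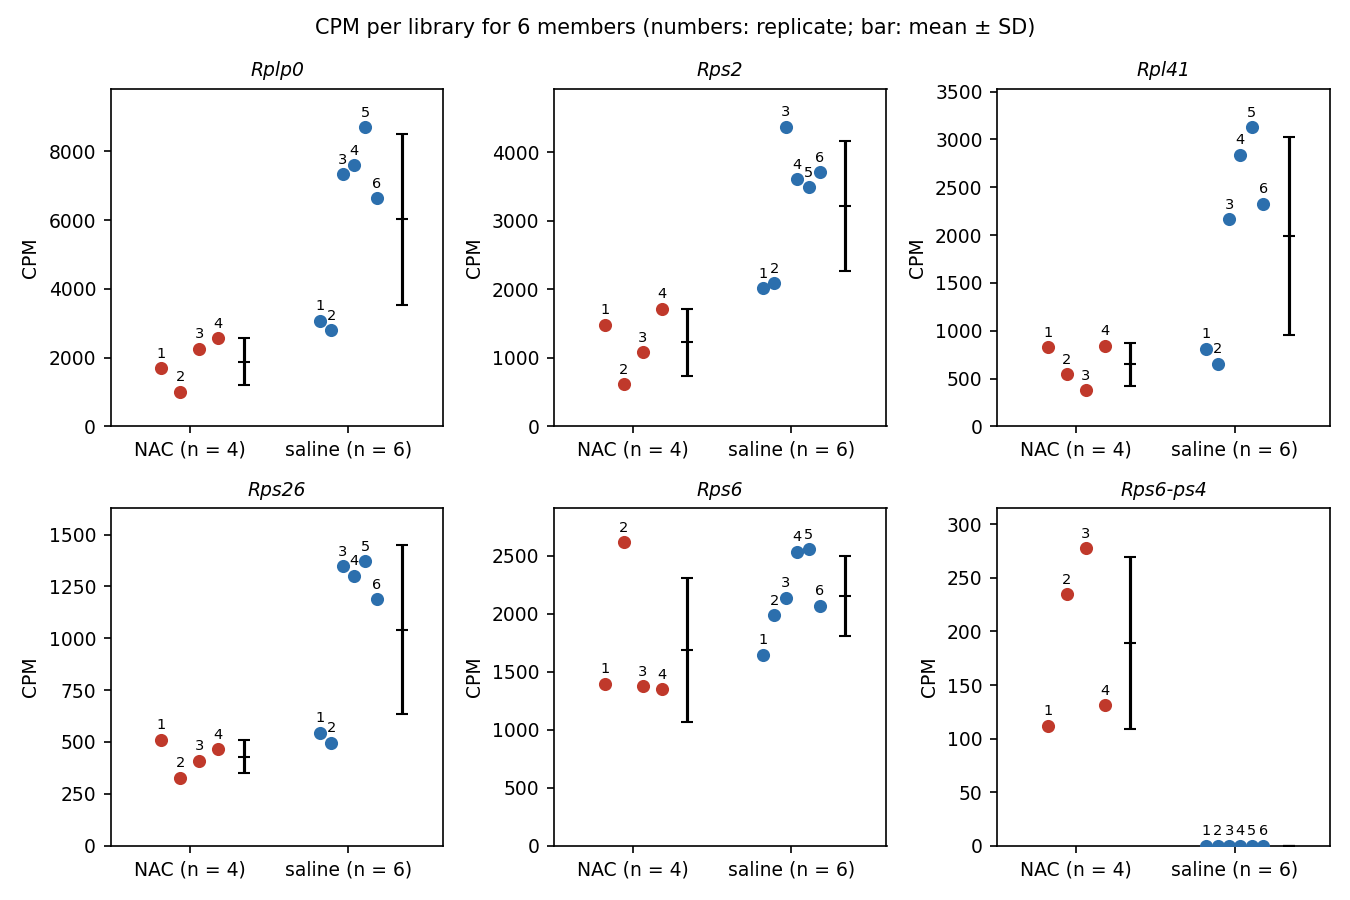
CPM per library of Rplp0, Rps2, Rpl41, Rps26, Rps6 and Rps6-ps4 (points, numbered by replicate), with mean ± SD beside each group (NAC, n = 4; saline, n = 6). Rplp0 averaged 1883 CPM in NAC and 6026 CPM in saline, with saline 1 and saline 2 nearest the NAC libraries; Rps6-ps4 had reads in the 4 NAC libraries only.

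The most abundant small subunit genes by mean CPM were Rps2, Rps19 and Rps3a1. Rps19, mutated in the human anaemia named after Diamond and Blackfan, had 2108, 2476, 951 and 1687 CPM in NAC and 1541 to 3737 CPM in saline (log2 fold -0.62, SE 0.33). Rps3a1 had 1248, 4576, 2006 and 1507 CPM in NAC and 1948 to 2961 CPM in saline (log2 fold -0.03, SE 0.34). NAC 2 was the highest of the 10 libraries for Rps3a1 and lay inside the saline range for Rps19.

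Positive folds in the small subunit again rested on NAC 2. Rps24, needed to mature the RNA of the small subunit, had 687, 2574, 1273 and 761 CPM in NAC and 672 to 1220 CPM in saline (log2 fold 0.52 with an SE of 0.35; adjusted p = 0.469 in edgeR). Rps25 and Rps20 had log2 folds of 0.22 and 0.20, with 813 and 1700 CPM in NAC 2 and at most 456 and 1115 CPM in saline. Without NAC 2 the folds of Rps24, Rps25 and Rps20 were -0.05, -0.21 and -0.22, in that order.

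Levels of different genes are compared per kilobase of annotated transcript (the one with the longest coding sequence), since longer transcripts give more reads. In saline the highest means were 7944 CPM per kilobase for Rpl13, 4437 for Rplp0, 3907 for Rpl41, 3823 for Rpl4 and 3341 for Rps2. In NAC they were 3467 for Rpl13, 3089 for Rpl19, 2389 for Rps3a1, 2243 for Rpl13a and 2241 for Rpl4. At the low end stood Rpl5 and Rpl12, with 46.5 and 70.6 CPM per kilobase in NAC and 38.3 and 75.1 in saline. Rps15a had 85.9 CPM per kilobase in NAC and 82.6 in saline, but the transcript taken for it is 5179 bases long, and by CPM alone (445 in NAC and 428 in saline) it stood above Rps12 and Rpl39. Rpl5 and Rpl12 are genes whose reads were mostly given to copies.

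**Figure D4:**
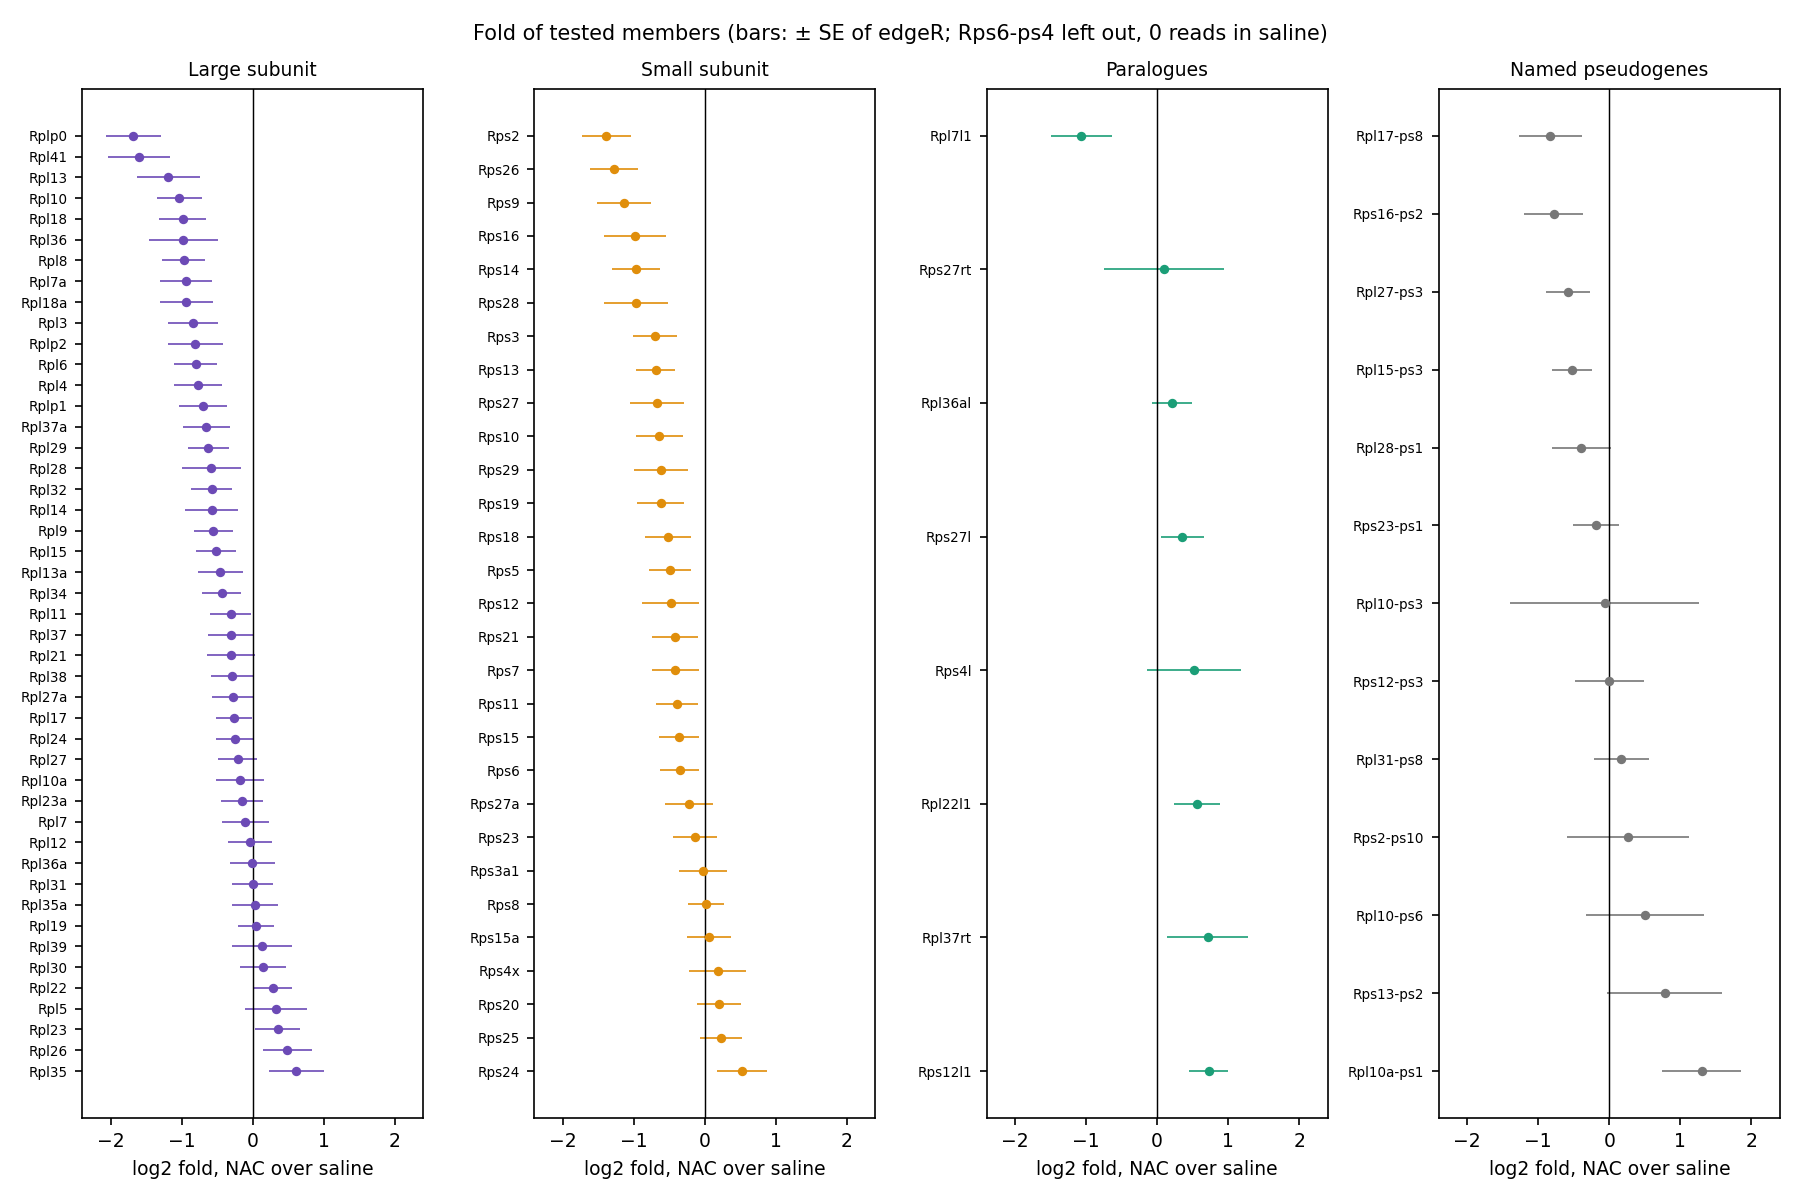
Log2 fold of NAC over saline for tested members, by class and sorted from lowest at the top (points, with bars of ± SE derived from edgeR's F statistic). Rps6-ps4 is left out because it had no read in saline. Large and small subunit genes run from -1.68 to 0.61, and most points lie left of 0, while 7 of the 8 paralogues lie right of it (median 0.44 with all libraries and 0.027 without NAC 2).

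Features that the naming rule did not use were set against the folds, as a description across genes that share libraries. The log2 fold of the 76 subunit genes went with the GC content of the transcript (Spearman's rho = -0.37), as it did over 10851 tested genes with an annotated length (rho = -0.44). The third of subunit genes with the lowest GC content (41.3% to 49.3%, 25 genes) had a median log2 fold of -0.14, the middle 26 genes of -0.53, and the 25 genes of highest GC content (54.1% to 60.8%) of -0.63. Within libraries the deviation from the saline mean went with GC content most in NAC 2 (rho = -0.42) and NAC 3 (rho = -0.34), the libraries with the fewest genes detected. In saline 3 the rho was of opposite sign (0.28), and in the remaining libraries it was -0.17 to 0.11. With offsets for GC content and length fitted in each library the subunit median was -0.41 and 61 of 76 folds were negative.

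The fold hardly went with transcript length (rho = 0.09). The subunit genes were short, with a median of 869 bases against 2983 for all genes tested. Length and GC content are those of the annotated transcript with the longest coding sequence. For some genes that transcript is long (2989 bases for Rpl18 and 2051 for Rpl22). Which transcript the cells made was not tested. Their median GC content was 51.8%, against 50.2%. They lie on 19 chromosomes, with 4 genes on the X chromosome.

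Start sites were searched for the pyrimidine run typical of these mRNAs, taken as 7 or more C or T letters in a row, counted over their whole length, that reach within 10 bases of the annotated start on the gene's own strand. RefSeq promoter sequences (GRCm38.p6) were found for 56 of the 76 genes. Such a run was present in 48.5% of their 66 promoters, against 19.7% of all 32851 promoters. Some genes with low folds fell short of 7 letters: the run had 6 letters in Rps2, 5 in Rplp0, 3 in Rpl41 and 3 in Rpl10. Among positive folds Rpl26, Rpl23 and Rpl22 fell short too, with at most 3, 3 and 5 letters. These results rest on the 7-letter limit and on the annotated starts, whose accuracy was not tested. Other genes with low and with positive folds had a run of 7 or more. Examples with a run are Rps9 and Rps26 (among the lowest folds) and Rps24 and Rpl35 (the highest fold of each subunit). Another promoter of Rps24 had a run of 2 letters. The 30 bases around the start of each example are printed with the whole run in capitals. The windows are chr7:3704026-3704055 on the plus strand, chr10:128626492-128626521 on the minus strand, chr14:24490663-24490692 on the plus strand and chr2:39005117-39005146 on the minus strand.
Rps9: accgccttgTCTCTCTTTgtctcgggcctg
Rps26: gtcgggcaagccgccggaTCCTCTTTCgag
Rps24: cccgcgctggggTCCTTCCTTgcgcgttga
Rpl35: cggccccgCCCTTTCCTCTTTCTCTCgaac

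Of the 15 paralogues, 8 passed the filter on low counts, and Rpl3l, Rpl32l and Rps3a3 had no read in any library. Rpl10l had 2 reads, both in NAC 1. Rpl6l, Rpl39l and Rps3a2 had 19, 16 and 38.3 reads in all. Rps3a2 and Rps3a3 were put with the paralogues after their values were seen. Classes followed the symbol, and the annotation types some rows otherwise. It lists Rps12l1, Rpl37rt, Rpl6l and Rps3a2 as processed pseudogenes, and Rpl10-ps3 and Rps12-ps3, counted here with the pseudogenes, as protein coding. Rps12l1 and Rpl37rt are among the paralogues tested. Of the tested paralogues 7 had a positive log2 fold and 1 a negative one, with a median of 0.44. This median was 0.027 without NAC 2, and it was -0.024 with offsets for GC content and length. None passed edgeR's test, against 0.0731% of all genes. At an unadjusted p under 0.05 there were 1 higher and 1 lower, against 7.82% higher and 8.34% lower over all genes. DESeq2 called 0 of them and 3.96% of all genes.

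Rps12l1, an intronless copy of Rps12 (chromosome 7, 56014016 to 56014414, plus strand), had 112, 152, 79.5 and 118 CPM in NAC and a lowest of 56.4, a median of 66.1 and a highest of 102 CPM in saline. NAC 3 was the only NAC library inside the saline range, and the log2 fold was 0.72 (SE 0.28; adjusted p = 0.223 in edgeR). Its share of the reads of Rps12l1 and Rps12 together was 61.1%, 56.4%, 89.7% and 59.0% in NAC and 31.2% to 46.3% in saline, without overlap. The copy matched Rps12 at each of the 384 bases aligned, so reads from that stretch fit both rows equally well and the share rests on how Salmon divided them. Rps12 itself, a small subunit protein, had 70.9, 117, 9.10 and 82.3 CPM in NAC and 65.4 to 169 CPM in saline (log2 fold -0.48, SE 0.40, and -0.29 without NAC 3). When Rps12, Rps12l1 and the other annotated copies were summed the log2 fold was 0.07 (SE 0.32).

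Rpl22l1, a paralogue that can take the place of Rpl22, had 150, 491, 218 and 154 CPM in NAC and 149 to 205 CPM in saline (log2 fold 0.56 with an SE of 0.32; adjusted p = 0.395 in edgeR). Its share of the pair's reads was 39.4% to 51.9% in NAC and 37.6% to 47.0% in saline. NAC 2 gave the highest value for both members of the pair, and without it the log2 fold of Rpl22l1 was -0.04.

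Rps27l, a target of p53 in human cells, had 205, 489, 443 and 181 CPM in NAC and 229 to 300 CPM in saline (log2 fold 0.36, SE 0.30, and 0.03 without NAC 2). Its parent Rps27 had 476, 375, 226 and 344 CPM in NAC and 230 to 858 CPM in saline (log2 fold -0.67, SE 0.38). Rpl36al had 444, 698, 290 and 325 CPM in NAC and 289 to 472 CPM in saline (log2 fold 0.21, SE 0.28), and it took 59.4% to 72.6% of the reads of the Rpl36a pair in NAC and 55.1% to 60.3% in saline. NAC 2 was the highest library for Rpl36al, whose fold without it was -0.11, and so it was for Rpl36a (477 CPM, against at most 314 in saline).

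Rpl7l1, which works in ribosome assembly in the nucleolus, was the only paralogue with a negative fold. It had 100, 41.0, 213 and 78.3 CPM in NAC and 75.5 to 309 CPM in saline (median 212), a log2 fold of -1.07 (SE 0.43; adjusted p = 0.242 in edgeR). Rpl7 had a log2 fold of -0.10 (SE 0.33), with 3456 CPM in NAC 2 and 1199 to 1374 CPM in the other NAC libraries. Rps4l had 64.2, 4.10, 105 and 69.3 CPM in NAC and 11.8 to 101 CPM in saline (log2 fold 0.52, SE 0.66, and 0.22 to 1.03 with 1 library left out). Rps4x had 799, 4374, 1265 and 1140 CPM in NAC and 1259 to 2175 CPM in saline, so NAC 2 was the lowest library for the relative and the highest for Rps4x.

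The remaining paralogues were rare. Rpl37rt had 9.45 to 59.9 CPM in NAC and 7.16 to 37.9 CPM in saline (log2 fold 0.71, SE 0.57, and -0.08 without NAC 4), and Rps27rt 0 to 19.2 CPM in NAC and 0 to 20.5 CPM in saline (log2 fold 0.10, SE 0.85). Rpl37 had a log2 fold of -0.31 (SE 0.31), and Rpl39, the parent of Rpl39l, of 0.13 (SE 0.42). Rpl6, the parent of Rpl6l, had 2268, 1059, 2473 and 2315 CPM in NAC and 2467 to 4227 CPM in saline (log2 fold -0.80 with an SE of 0.30; adjusted p = 0.215 in edgeR).

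Among the 17 pseudogenes, 15 passed the filter. Beside a share of 0.0731% over all genes, 1 of them was called, Rps6-ps4. It lies on chromosome 2 (75191073 to 75191822, minus strand) and had 155, 115, 34.5 and 244 estimated reads in the NAC libraries and 0 in each of the 6 saline libraries. It was the only gene symbol with no read in saline and at least 10 in every NAC library, and 3 symbols had the opposite pattern. Over all genes tested, 1.96% had every NAC library above every saline library, as this pseudogene did. Its CPM was 112, 235, 278 and 131 in NAC, and edgeR gave an adjusted p of 2.14e-05. Since all 747 coding bases match Rps6, these reads cannot be told from those of Rps6 by sequence in that region.

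Rps6 encodes the small subunit protein that S6 kinases phosphorylate (chromosome 4, 86854660 to 86857412, minus strand). It had 1394, 2615, 1373 and 1351 CPM in NAC and 1645 to 2555 CPM in saline (median 2102), a log2 fold of -0.36 (SE 0.27; adjusted p = 0.536 in edgeR), which was -0.67 without NAC 2. With all copies added the values were 1509, 2857, 1664 and 1484 CPM in NAC and 1646 to 2561 CPM in saline, a log2 fold of -0.20 (SE 0.27; adjusted p = 0.737 in edgeR). Of the summed reads, Rps6 itself held 92.4%, 91.8%, 82.4% and 91.0% in NAC and 99.4% to 99.96% in saline. After summing, no member was called, at a background of 0.0641% called over all genes.

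The other pseudogenes had a scatter of folds, 7 negative and 7 positive besides Rps6-ps4, and none passed. The 6 with the most reads were Rpl15-ps3, Rps23-ps1, Rpl27-ps3, Rpl28-ps1, Rpl10-ps3 and Rps16-ps2. Rpl15-ps3 had 680, 942, 418 and 821 CPM in NAC and 647 to 1223 CPM in saline (log2 fold -0.53, SE 0.28), beside -0.51 (SE 0.28) for Rpl15. Rps23-ps1 had a log2 fold of -0.19 (SE 0.33) and Rps23 one of -0.14 (SE 0.31). Of the reads of parent and copies, Rpl15 held 57.3% to 61.1% in NAC and 57.6% to 61.4% in saline, and Rps23 39.8% to 55.0% in NAC and 40.0% to 42.9% in saline.

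For Rpl27-ps3 the log2 fold was -0.58 (SE 0.31), beside -0.21 (SE 0.27) for Rpl27. Rpl28-ps1 had -0.39 (SE 0.42), beside -0.58 (SE 0.41) for Rpl28, and Rps16-ps2 had -0.78 (SE 0.42), beside -0.98 (SE 0.43) for Rps16. Rpl17-ps8 had -0.83 (SE 0.45; adjusted p = 0.367 in edgeR).

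Rpl10-ps3 was split unevenly between libraries. It had 488, 0, 0 and 361 CPM in NAC, and 0.001, 391, 177, 133, 209 and 505 CPM in saline 1 to saline 6, so libraries near 0 occurred in both groups. Its log2 fold was -0.07 (SE 1.34). Rpl10a-ps1 had 94.8, 594, 88.4 and 72.0 CPM in NAC and 43.4 to 167 CPM in saline (log2 fold 1.30 with an SE of 0.55; adjusted p = 0.261 in edgeR), and without NAC 2 the fold was -0.06. Rpl10a, the parent, had 2202 CPM in NAC 2 and 838 to 1047 CPM in the other NAC libraries, against 943 to 2013 CPM in saline.

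Copies without a -ps name were more common than named ones. A search of annotated transcripts found 884 copies of the subunit genes in the tables (at least 90% identity over at least 70% of the coding sequence), of which 113 had at least 10 reads and 70 of these had no -ps name. Of the 26 copies with at least 100 reads, 17 were identical to the parent over the aligned bases. In 6 families more reads lay on copies than on the parent: 93.5% for Rpl5, 82.7% for Rpl12, 68.1% for Rpl27, 58.5% for Rps12, 58.1% for Rps23 and 52.0% for Rpl27a. In 52 families copies held under 1% of the reads. For the stalk genes, Rps2, Rpl41 and Rps26 summing moved the log2 fold by little, and Rplp0 stayed at -1.68 (edgeR adjusted p = 0.0777).

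**Figure D5:**
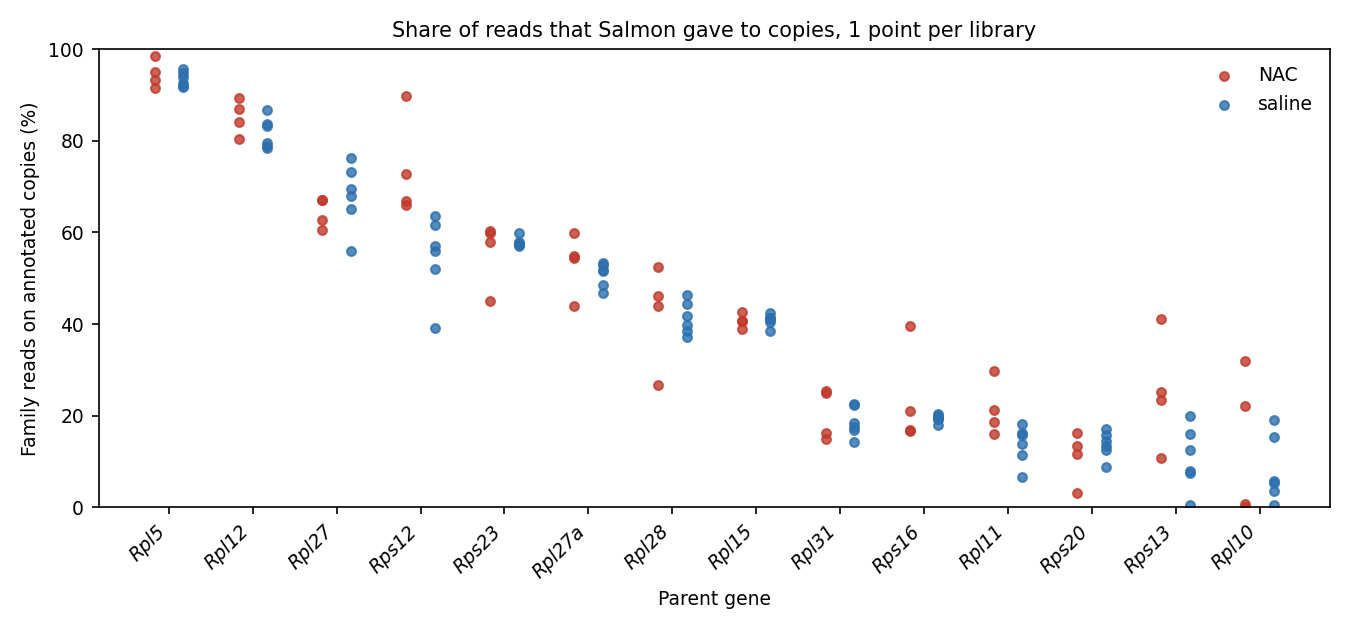
Share of each family's reads that was given to annotated copies, in each library (points; NAC left of saline), for the 14 families where copies held over 10% of the reads. Rpl5 lies above 90% in both groups, and NAC 3 gives the highest value for Rps12 (89.7%) and for Rps16 and Rps13.

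After summing, 56 of the 76 families had a negative log2 fold (median -0.42), 0 passed edgeR's test and 19 had an unadjusted p under 0.05, all lower. Over the 10917 genes and families of the same fit, 8.37% were lower and 7.83% higher at that p. The sums of 9 families moved by over 0.1 on the log2 scale, the most for Rps12. Rpl5 with Gm15500, whose protein binds the RNA of the large subunit's central protuberance, had 964, 3358, 1640 and 998 CPM in NAC and 1080 to 1335 CPM in saline (log2 fold 0.54 with an SE of 0.32; adjusted p = 0.426 in edgeR). NAC 2 and NAC 3 were above the saline range and NAC 1 and NAC 4 below it.

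Ribosomal proteins whose symbols the naming rule misses gave values of the same kind. Fau encodes a ubiquitin-like protein fused to a ribosomal protein, Rpsa a small subunit protein, and Rack1 a signalling scaffold on the small subunit. Their log2 folds were -0.49 (SE 0.32; adjusted p = 0.462 in edgeR), -0.21 (SE 0.31) and -0.42 (SE 0.25), in that order. Fau had 367, 115, 124 and 179 CPM in NAC and 235 to 359 CPM in saline, so NAC 1 lay above the saline range and the other NAC libraries below it, and without NAC 1 its log2 fold was -1.05.

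Of 49 tested genes for ribosome biogenesis, 32 had a negative log2 fold (median -0.22). None passed edgeR's test, and 3 higher and 8 lower had an unadjusted p under 0.05, beside shares of 7.82% higher and 8.34% lower over all genes. Eif6, which keeps the subunits apart until the large one is mature, had 55.5, 18.4, 56.4 and 145 CPM in NAC and 83.4 to 265 CPM in saline (log2 fold -1.32 with an SE of 0.46; adjusted p = 0.184 in edgeR), and without NAC 4 the fold was -2.17. Bop1 and Pes1, partners in one assembly complex of the large subunit, had log2 folds of -1.15 (SE 0.43) and -0.90 (SE 0.34). On the other side, Gnl3, Nmd3 and Wdr75, which act in growth of the nucleolus, export of the large subunit and early processing of the small one, had log2 folds of 0.79 (SE 0.31), 0.71 (SE 0.30) and 0.70 (SE 0.31). Without NAC 2 the folds of Gnl3, Nmd3 and Wdr75 were 0.37, 0.42 and 0.31, in that order.

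Rps19bp1, kept apart, had 98.1, 30.7, 24.2 and 62.8 CPM in NAC and 53.4 to 114 CPM in saline (log2 fold -0.44, SE 0.37). NAC 2 and NAC 3 lay below the saline range, and the other NAC libraries within it.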

How the data were processed

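Estimated counts and TPM per gene were deposited by the authors for each library. The submitters' processing notes name Salmon and GRCm38; their versions and annotation are not given in the sources used. Reads shared by similar sequences were split by Salmon. The deposited lengths were under the shortest annotated transcript (GENCODE release M21) for 65 of 76 subunit genes (Rplp0: 339 to 340 bases against 600), which enters the deposited TPM, so levels were compared as CPM per kilobase of annotated transcript. Estimated counts were rounded; 1548 rows without a symbol (0.496% to 0.638% of reads) were left out.

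NAC was compared with saline by edgeR 4.0.16 (R 4.3.3; robust quasi-likelihood, TMM, default filter) over 10945 genes, with Benjamini-Hochberg adjustment and a threshold of 0.05. CPM use TMM factors. The quasi-likelihood test gives no SE, so each SE is the absolute log2 fold divided by the square root of the F statistic. The script was tested on simulated data. Copies were found with BLAST 2.17.0. Alternatives, listed with their effect in the closing section, used DESeq2 1.42.0 and limma 3.58.1 (log2(TPM + 1) or log2(TPM + 0.1)). Copy family sums and GC and length offsets were added after seeing the data.

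Members and lists were chosen with earlier results of these data known. The genes named were set by rule: the stalk genes; in each subunit the 4 smallest unadjusted p in each direction and the 3 highest mean CPM; paralogues with a mean of 1 CPM or more in a group; pseudogenes called, the 6 with most reads and the 4 with smallest p; parents of both; ribosomal genes outside the name pattern; and 3 biogenesis genes in each direction. The values of 3 genes are not reported here. Others were named after their values were seen. Depth was 116461 to 2488408 estimated reads. Reads were amplified and carry no molecular identifiers, so they are not independent molecules.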

Additional observations from a re-analysis of the deposited data

Results flagged for a closer look

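In groups of 4 or 6 libraries, the library at one end was set against Dixon's 95% limit for 64 named genes, in 128 groups. This picked out 12 values. The limit is set for about 1 in 20 groups of independent normal values. These groups share the same libraries, so the count cannot be set against that rate. Of the 12, 9 were values of NAC 2. It was the high library for Rpl7 (3456 CPM), Rpl10a (2202 CPM), Rpl10a-ps1 (594 CPM), Rpl23 (1437 CPM), Rps4x (4374 CPM), Rps6 (2615 CPM), Rps23 (741 CPM) and Gnl3 (381 CPM), and the low library for Rpl6 (1059 CPM). NAC 1 was high for Rpl6l (3.43 CPM, 0 in the other NAC libraries) and NAC 4 for Rpl39l (4.83 CPM, 0 in the other NAC libraries), both rare paralogues. Beside values of 0 in the rest of the group, any value above 0 passes the limit. Saline 2 was low for Bop1 (19.3 CPM).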

How the results depend on the processing

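Over 24 alternatives, the large and small subunit medians were negative in all. Of 1445 single-gene values over 61 named genes, 1356 kept sign and side of the threshold, 79 (27 genes) changed sign and 10 passed the threshold. The causes were not tested. Over all genes, 8 calls became 433 with DESeq2, 226 without a low-count filter, 2 without NAC 2 and NAC 3, 4 with effective-length offsets, 1 with the oocyte score as covariate, 16 with GC and length offsets, and 1 to 58 with 1 library left out. The 1 member called became 7 with DESeq2, 5 without the filter, and 0 when named pseudogenes or all copies were summed. To look for pairing, the group mean of each gene was subtracted from its log2 levels. The remaining deviations of same-numbered NAC and saline libraries correlated at -0.01, 0.01, 0.01 and 0.20 (replicates 1 to 4). Only for NAC 4 was the same-numbered saline library the closest. With the replicate block 1 gene was called, Rps6-ps4, the subunit median was -0.35 and Rps4x was -0.073. The paralogue median was 0.13 without NAC 2 and NAC 3, -0.024 with GC and length offsets and 0.027 to 0.42 with 1 library left out; the pseudogene median was -0.57 with log2(TPM + 0.1) and -0.26 to 0.25 with 1 library left out. The large and small subunit medians with 1 library left out were -0.54 to -0.33 and -0.66 to -0.36. Library size alone moved the median of all genes to 0.19. Other read minimums gave 49 (10 reads) or 12 (200 reads) pseudogenes.

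Single log2 folds that changed sign were as follows. With a 10 CPM filter Rps3a1 was 0.0077 and Rpl36a 0.027. Rpl36a was 0.022 with DESeq2, 0.019 with RLE factors, 0.015 with copy sums and 0.012 with named pseudogenes summed, and Rps12 was 0.073 with copy sums. With GC and length offsets Rpl23 was -0.013, Rps20 -0.43, Rpl22l1 -0.35, Rps27l -0.32, Rps27rt -0.29, Rpl39 -0.14, Rps4x -0.11, Nmd3 -0.059, Rpl10-ps3 0.020, Rpl27 0.13, Rpl10a 0.36 and Fau 0.0089. With effective-length offsets Rps3a1 was 0.041, Rpl7 0.011, Rpl36a 0.14 and Rps23-ps1 0.073. With library size alone Rps3a1 was 0.11, Rpl7 0.047, Rpl36a 0.15, Rpl10-ps3 0.17 and Rps23 0.026. With log2(TPM + 0.1) Rpl37rt was -0.82, Rps27rt -0.39, Rpl39 -0.10 and Rps4x -0.035, and with log2(TPM + 1) -0.80, -0.12, -0.10 and -0.035. With the oocyte score Rps3a1 was 0.050, Rps27rt -0.018, Rpl7 0.012 and Rpl36a 0.10. Without NAC 2 and NAC 3 Rpl35 was -0.43, Rpl26 -0.44, Rpl23 -0.17, Rpl22 -0.13, Rps24 -0.38, Rps25 -0.081, Rps20 -0.36, Rpl22l1 -0.21, Rpl36al -0.04, Rps27l -0.43, Rpl39 -0.16, Rps4x -0.82, Rpl28-ps1 0.23, Rpl10-ps3 0.80 and Rpl10a-ps1 -0.10.

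With 1 library left out, the ranges that crossed 0 were -0.79 to 0.36 for Rpl10-ps3, -0.055 to 1.52 for Rpl10a-ps1, -0.038 to 0.34 for Rpl22, -0.036 to 0.67 for Rpl22l1, -0.073 to 0.40 for Rpl23, -0.10 to 0.61 for Rpl26, -0.45 to 0.14 for Rpl36a, -0.11 to 0.28 for Rpl36al, -0.084 to 1.00 for Rpl37rt, -0.38 to 0.31 for Rpl39, -0.22 to 0.27 for Rps20, -0.055 to 0.65 for Rps24, -0.21 to 0.34 for Rps25, -0.39 to 0.30 for Rps27rt, -0.61 to 0.088 for Rps3a1 and -0.67 to 0.34 for Rps4x. NAC 3, with 116461 reads, and NAC 2, with reads for 10434 symbols, limit what rare paralogues and pseudogenes can show.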
